A study of Rattus norvegicus with 33 samples.

Results

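Shotgun sequencing of DNA from cecal contents was carried out in 17 spontaneously hypertensive rats (SHR, an inbred strain with high blood pressure) and in 16 Wistar-Kyoto rats (WKY, the related strain with normal blood pressure), 33 libraries in all. The 17 SHR rats were grouped by animal number into an early set of 6 rats with numbers 400 to 409 (4 females and 2 males) and a late set of 11 rats with numbers 410 to 423 (6 females and 5 males). All rats were 14 to 15 weeks old, none carries a treatment or an altered allele in the labels, and each library is 1 rat. The 16 WKY rats (9 females and 7 males) have numbers 372 to 389. Animal number stands here as a proxy of shared litter, cage or processing, none of which was analysed here as such, and within each set the females have lower numbers than the males.

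The place of the cut between numbers 409 and 410 was chosen by values of these same libraries. Differences between the early and the late set are therefore given as a description, with no test. Tests are given only for strain, sex, read depth within the late set and animal number within WKY. At the cut, rat 409 had 653926 assigned reads and rat 410 had 346469. Lactobacillus took 1.14% of the reads in rat 409 and 1.81% in rat 410, and the function of acetoin and butanediol metabolism had normalized values of 620.3 and 444.8. The cut is not the largest step of every measure. Bacteroidetes took 39.2% in rat 409 and 45.7% in rat 410, but 41.9% in rat 413 and 16.8% in rat 414. Gram Positive Competence had values of 62.4, 93.3, 96.6 and 350 in rats 409, 410, 413 and 414. Acetoin and butanediol metabolism had 372.5 in rat 413 and 257.6 in rat 414.

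The cecum is the fermentation chamber of the rat gut. Bacteroidales such as Bacteroides, Muribaculum and Duncaniella break down plant and host glycans there, Lachnospiraceae such as Roseburia ferment sugars to short-chain fatty acids and include flagellated members, and lactobacilli produce lactic acid from simple sugars. Rats eat feces and share cages and mothers, so the gut communities of rats from one litter or cage tend to be alike. A share of reads is relative, so a rise of one taxon and a fall of all others cannot be told apart.

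Gut genera led every SHR library. Bacteroides took 3.09 to 17.3% of the reads and Muribaculum 3.32 to 12.8%. The summed share of 12 genera known as contaminants of DNA reagents was 1.44 to 1.73% in the early set and 0.962 to 1.48% in the late set, and 9 of 11 late rats lay below all early rats. Its part in the differences below was not tested.

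Read depth differed between the sets. Early libraries had 467250 to 705111 assigned reads (median 566637) and late libraries 163140 to 610776 (median 337574), and 8 of 11 late libraries were shallower than the shallowest early one. The early minus late difference was 0.75 on the log2 scale. The 16 WKY libraries had 432633 to 886827 reads. The range that both sets cover, 467250 to 610776 reads, holds 4 early rats (400, 401, 402 and 407) and 3 late rats (419, 422 and 423), with 0 late females. Most named differences below are therefore given also with log2 of the reads as a covariate, and many also within the shared depth range. The covariate has a single slope, fitted over all 33 libraries and so shared by SHR and WKY. Sex was in the fit within the shared depth range, and no late female lies in the range. Each value within the shared depth range is therefore early male 407 against late males 419, 422 and 423. The early females 400, 401 and 402 do not change it, so on the early side it rests on rat 407 alone. Depth and set go together, so their parts cannot be fully told apart.

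**Figure D1:**
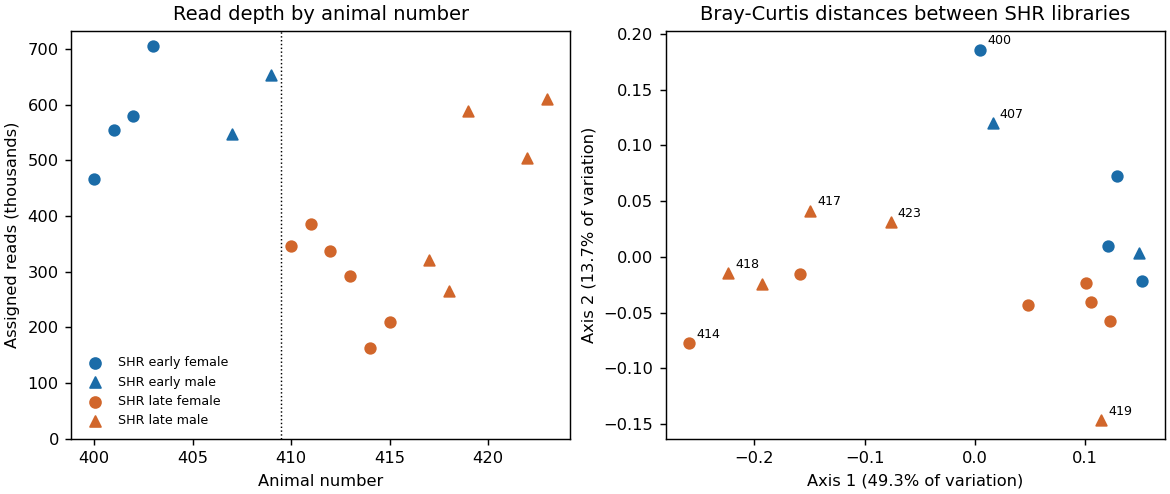
The left panel plots assigned reads, in units of 1000, against animal number for the 17 SHR rats, with a dotted line at the cut, and the right panel plots the first and second principal coordinates of Bray-Curtis distances between the same rats, with some numbers written beside their points (circles are females, triangles are males). Early libraries have 467250 to 705111 reads and 8 late libraries lie below all of them. On the first axis, which holds 49.3% of the variation, early rats lie at 0.00486 to 0.151, late rats 410, 411, 412, 413 and 419 lie among them, and the other 6 late rats lie below 0.

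Early rats held less Lactobacillus than late rats, with more Hungatella, Enterocloster and Roseburia of the Lachnospiraceae, more genes of chemotaxis, flagella and acetoin metabolism, and lower values of Gram Positive Competence and lipoteichoic acid synthesis. These differences kept their direction when read depth was taken into account, though some shrank. With depth as a covariate, lipoteichoic acid synthesis went from -1.11 to -0.72 and acetoin metabolism from 0.76 to 0.58. Differences of Romboutsia and Turicibacter, of the abundant Bacteroidales and of Xylose, L-fucose and L-rhamnose utilization shrank more or changed sign. Log2 differences were fitted on the authors' size-factor normalized values plus 1, as the mean of the female and the male difference, early minus late, so a positive value is higher in the early set. Of 1425 genera measured above the filter, 19 were at least 2-fold higher (1.33%) and 15 at least 2-fold lower (1.05%) in the early set. All 6 early values lay above all 11 late values in 6 genera (0.421%) and below them in 1 (0.0702%). Scaled by library totals in place of size factors, 32 genera were higher and 14 lower. Counts without overlap can only stay or rise when a rat is left out. The count of 7 genera without overlap was 30 without rat 407, 23 without rat 400, 22 without rat 411, 20 without rat 410, 14 without rat 409 and 12 without rat 403. The median of all genera was 0.10, and 853 of 1425 were higher in the early set by any amount. With depth as a covariate, 9 of the 34 genera past 2-fold stayed past it and 1 changed sign. Of 4723 species, 136 were at least 2-fold higher (2.88%) and 105 lower (2.22%), and 21 (0.445%) and 16 (0.339%) did not overlap between the sets. Scaled by library totals, 231 species were higher and 106 lower. Without rat 407 the count past 2-fold was 372 in place of 241, and the count without overlap, 37, became 89, while it was 68 without rat 400, 61 without rat 410 and 62 without rat 411. With depth as a covariate 79 of those 241 species stayed past 2-fold and 7 changed sign. Of 658 functions, 8 were at least 2-fold higher (1.22%) and 20 lower (3.04%), and 12 (1.82%) and 2 (0.304%) did not overlap. There 13 of 28 stayed past 2-fold with depth as a covariate and 4 changed sign.

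Lactobacillus had the largest difference of the genera with a mean SHR share of at least 0.05% and the same direction in both sexes. Its share was 0.858 to 1.58% in the early set (median 1.32%) and 1.28 to 13.2% in the late set (median 4.42%). Of the 11 late rats 10 lay above every early rat, rat 413 being the exception, and the highest shares were those of rats 414, 422 and 423. The log2 difference was -2.01 ± 0.57 (SE), -1.74 with depth as a covariate and -2.54 within the shared depth range, and leaving out any 1 SHR library gave -2.16 to -1.82. The 16 WKY rats held 1.97 to 26.2% (median 7.70%), all above every early rat.

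Within that genus Lactobacillus johnsonii, a common resident of the rodent gut, was the most abundant species. It took 0.300 to 1.19% in the early set and 0.678 to 10.3% in the late set, with 8 late rats above all early rats and rat 414 highest. Its log2 difference was -2.47 ± 0.62, and -2.11 with depth as a covariate. Species of the acidophilus group were lower in the early set by similar amounts, at -1.57 ± 0.56 for Lactobacillus acidophilus, -1.53 ± 0.55 for Lactobacillus crispatus and -1.50 ± 0.57 for Lactobacillus amylovorus, with 9 of 11 late rats above all early rats in each. These 3 are close relatives whose reads an assignment could split, so they do not count as independent measurements. Limosilactobacillus vaginalis ran from 0.00432 to 0.1098% in the early set and from 0.00614 to 0.781% in the late set, a log2 difference of -2.65 ± 1.03 that became -1.31 with depth as a covariate.

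Most other lactic acid bacteria lay on the side of Lactobacillus. Of the 13 genera in that list, 12 were lower in the early set by any amount, with a median of -0.44 against 0.10 over all genera, and 1 was past 2-fold. The median with depth as a covariate was -0.13, and the list's summed share was 2.45 to 5.93% in the early set and 3.73 to 19.5% in the late set. Limosilactobacillus, which includes L. reuteri, had -0.96 ± 0.55, or -0.54 with depth as a covariate, with 4 of 11 late rats above all early rats. Ligilactobacillus, which includes L. murinus, was the 1 genus that ran the other way, at 0.65 ± 0.69. Its shares overlapped widely, from 0.258 to 2.66% in the early set and from 0.145 to 2.40% in the late set, and the difference became 1.30 with depth as a covariate and 2.62 within the shared depth range.

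Romboutsia, a spore-forming genus of the small and large intestine, was at 0.917 to 2.88% in the early set (median 1.43%) and 1.60 to 7.11% in the late set (median 2.57%). Rats 414, 415, 417, 418 and 422 held 5.28 to 7.11% and lay above every early rat, and the other 6 late rats lay within the early range. The log2 difference of -1.10 ± 0.51 became -0.37 with depth as a covariate and -0.28 within the shared depth range. Turicibacter, another spore former, had the same 5 late rats on top. It ran from 0.314 to 0.985% in the early set and 0.649 to 2.23% in the late set, and its difference of -1.15 ± 0.47 became -0.43 with the covariate and -0.25 within the shared depth range.

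The other clostridia and Erysipelotrichia lay on the same side. All 5 measured genera of clostridia and Peptostreptococcaceae were lower in the early set (median -0.78, with the covariate -0.37), and so were all 7 Erysipelotrichia (median -0.44, with the covariate -0.02). Faecalibaculum, one of the latter, had -0.87 ± 0.57 and changed sign to 0.69 with the covariate and 0.67 within the shared depth range. The 5 mollicute genera, wall-less bacteria with small AT-rich genomes, were all lower in the early set (median -0.71, with the covariate -0.26), and the phylum Tenericutes took 0.308 to 0.600% of early and 0.414 to 1.18% of late reads.

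Akkermansia, which feeds on mucin, spread widely within both sets. It took 0.0655 to 0.914% in the early set and 0.0580 to 7.88% in the late set, with rats 417 (7.88%) and 418 (3.36%) highest. The log2 difference was -1.79 ± 1.31, -0.21 with depth as a covariate and 0.11 within the shared depth range. Adlercreutzia, a genus known for converting plant isoflavones, was at 0.162 to 0.432% in the early set and 0.276 to 0.612% in the late set, with 7 late rats above all early rats and a difference of -0.99 ± 0.41 that became -0.56 with depth as a covariate and -0.21 within the shared depth range. Symbiobacterium was at 0.0190 to 0.0375% and 0.0291 to 0.185%, with a difference of -1.02 ± 0.31 that kept its size with the covariate (-0.90).

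**Figure D2:**
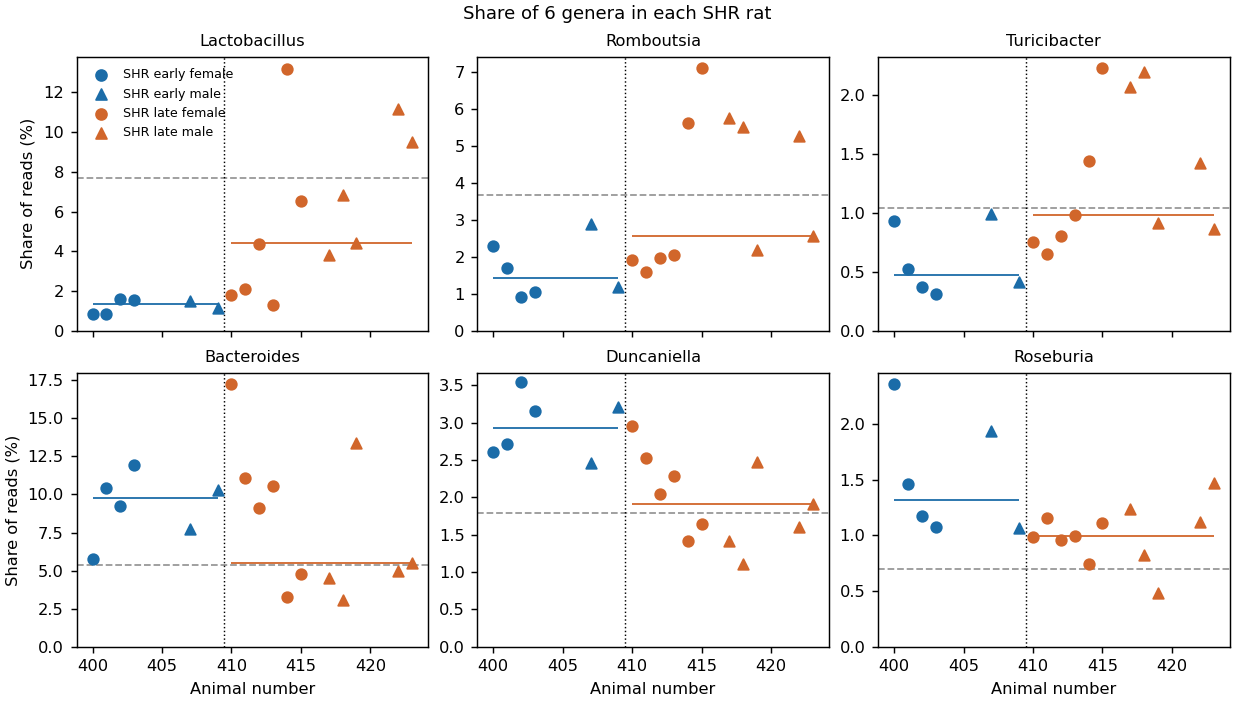
Share of reads in percent of 6 genera in each SHR rat, by animal number, with coloured lines at the median of each set, a grey dashed line at the WKY median and a dotted line at the cut (blue, early; orange, late; circles, females; triangles, males). Lactobacillus is above 1.58%, the highest early value, in 10 of 11 late rats, while Romboutsia and Turicibacter are highest in rats 414, 415, 417, 418 and 422.

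Among the genera higher in the early set, Hungatella, Enterocloster, Cohnella and Roseburia kept their difference when depth was taken into account. Roseburia, a flagellated butyrate producer, took 1.07 to 2.36% in the early set (median 1.32%) and 0.480 to 1.47% in the late set (median 0.991%). Rats 400 and 407 were highest, 6 of 11 late rats lay below every early rat, and the difference was 0.52 ± 0.21, or 0.67 with depth as a covariate. Hungatella ran from 0.318 to 0.722% in the early set and from 0.156 to 0.365% in the late set, with 9 late rats below all early rats. Its difference was 0.66 ± 0.18, or 0.73 with the covariate. Enterocloster, which like Hungatella belongs to the Lachnospiraceae, took 0.648 to 1.197% and 0.363 to 0.736%, with a difference of 0.58 ± 0.18 on either fit. Cohnella, a genus of spore-forming Paenibacillaceae at 0.0557 to 0.0965% against 0.0325 to 0.0655%, had 0.53 ± 0.13, and 10 late rats lay below all early rats.

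The lists of related genera showed the same side. All 10 measured butyrate producers were higher in the early set by any amount (median 0.29, with the covariate 0.38) and 0 were past 2-fold. Their summed share was 5.89 to 7.48% in the early set and 3.96 to 6.31% in the late set, and 9 of 11 late rats lay below all early rats. All 6 other Lachnospiraceae were higher too (median 0.39, with the covariate 0.46), with a summed share of 5.18 to 10.4% against 2.83 to 7.03%. Lachnoclostridium, the most abundant of these, took 2.20 to 4.08% in the early set and 1.05 to 2.86% in the late set (0.48 ± 0.20), and Blautia, which makes acetate, 1.54 to 3.39% and 0.978 to 2.38% (0.25 ± 0.21, and 0.10 to 0.41 when 1 library was left out). Bifidobacterium, another genus of sugar fermenters, did not separate the sets, with 0.903 to 2.80% and 0.678 to 4.57% and a difference of -0.08 ± 0.72 that changed sign when any of 5 libraries was left out.

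The Bacteroidales were mostly higher in the early set, but their median changed sign when depth entered the fit. Duncaniella took 2.47 to 3.54% in the early set (median 2.93%) and 1.10 to 2.95% in the late set (median 1.91%), with 8 of 11 late rats below all early rats and a difference of 0.60 ± 0.27 that became -0.04 with depth as a covariate. Muribaculum had 0.50 ± 0.41, which became -0.28. Bacteroides ran from 5.77 to 11.95% in the early set and from 3.09 to 17.3% in the late set, where rats 410 and 419 held the highest shares and 414 and 418 the lowest. Over the 14 measured Bacteroidales 13 were higher in the early set by any amount (median 0.25), and the median was -0.54 with the covariate. Parabacteroides had 0.08 ± 0.59, with a change of sign when any of 6 libraries was left out (range -0.40 to 0.56) and a value of -1.35 with the covariate and -1.14 within the shared depth range. It ran in the late set from 0.674% in rat 417 to 10.3% in rat 419. Proteiniphilum, at 0.0796 to 0.136% against 0.0252 to 0.121%, had a difference of 0.98 ± 0.39 that became 0.17. Several species of Bacteroides changed sign with the covariate, but not within the shared depth range. Bacteroides uniformis, a user of plant polysaccharides, went from 0.80 ± 0.64 to -0.76, Bacteroides sp. A1C1 from 1.21 ± 0.80 to -0.77 and Bacteroides sp. CACC 737 from 1.19 ± 0.74 to -0.66, with 0.38, 0.57 and 0.71 within that range. Duncaniella dubosii, with 9 late rats below all early rats, went from 0.69 ± 0.31 to 0.03.

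At phylum level the late rats spread to both sides of the early ones. Bacteroidetes took 22.7 to 43.5% in the early set and 14.6 to 49.2% in the late set, and Firmicutes 33.4 to 49.2% and 29.9 to 57.1%. Rats 410, 411, 412, 413 and 419 held 36.2 to 49.2% Bacteroidetes and the other 6 late rats 14.6 to 23.3%. Among early rats 400 and 407 were lowest, at 22.7% and 26.1%. The log2 ratio of Firmicutes to Bacteroidetes differed by -0.49 between the sets (SD within a group 0.90), with 6 late rats above and 2 below all early rats. It was -0.74 without rat 407 and -0.24 without rat 409.

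The community distances gave a like picture. The median Bray-Curtis distance, which runs from 0 for equal profiles to 1 for none shared, was 0.202 among early rats, 0.276 among late rats and 0.296 between the sets. It was 0.398 between early SHR and WKY, 0.338 between late SHR and WKY and 0.379 among WKY rats. Set went with 0.188 of the variation among the 17 rats. Species richness counts each of 5999 listed bacterial species that has any read. Names with very few reads count as well, and misassigned reads were not separated out. At equal thinned depth the Shannon index was 5.73 to 6.49 in the early set and 5.71 to 6.19 in the late set (difference 0.13, within-group SD 0.21, from 0.0652 without rat 400 to 0.192 without rat 403), and species richness 5159 to 5293 and 5099 to 5292 (difference 56.3, within-group SD 56.9). The within-set SD of log2 values was larger in the late set in 1093 of 1425 genera, with medians of 0.30 in the early set and 0.42 in the late set, and in 507 of 658 functions, with medians of 0.19 and 0.26. The late libraries were also shallower, and the part of depth in this spread was not tested.

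Functions of motility were higher in the early set. Bacterial Chemotaxis, the sensing system that steers swimming cells, had normalized values of 1586 to 2223 in the early set (median 1781) and 776 to 1462 in the late set (median 1154). All 11 late rats lay below all 6 early rats, the lowest being 419, 414 and 418, and the difference was 0.73 ± 0.23, or 0.75 with depth as a covariate and 0.99 within the shared depth range. Flagellar motility was at 754 to 1316 in the early set (median 1021) and 371 to 801 in the late set (median 632), with 10 of 11 late rats below all early rats. Rats 400, 401 and 407 were highest, and the difference was 0.71 ± 0.31, or 0.89 with the covariate. All 5 functions of the motility list were higher in the early set by any amount (median 0.53, with the covariate 0.61), against a median of 0.01 over all 658 functions.

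Acetoin and butanediol metabolism, a fermentation branch with neutral products, had values of 499 to 681 in the early set (median 614) and 258 to 445 in the late set (median 354). The sets did not overlap, and the difference was 0.76 ± 0.15, or 0.58 with depth as a covariate. Heme biosynthesis orphans, with 0.74 ± 0.21 and 10 late rats below all early rats, also kept its difference with the covariate (0.69).

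Xylose utilization was at 2938 to 3797 in the early set (median 3255) and 1208 to 3127 in the late set (median 2085), with rat 419 the highest late rat and 414 the lowest. Its difference of 0.59 ± 0.23 became 0.17 with depth as a covariate and 0.37 within the shared depth range. L-fucose utilization went from 0.58 ± 0.25 to 0.11 and L-rhamnose utilization from 0.68 ± 0.34 to -0.10, while Sugar utilization in Thermotogales, with all 11 late rats below all early rats, went from 0.62 ± 0.18 to 0.51. Over the 5 functions of the list on mucin and host sugars the median was 0.09, with 4 higher and 1 lower, and 0.04 with the covariate.

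Gram Positive Competence and lipoteichoic acid synthesis had the largest negative differences of the named functions, and were chosen by that size. Gram Positive Competence, the uptake of DNA, was at 56.6 to 92.6 in the early set (median 70.7) and 93.3 to 350 in the late set (median 165). The sets did not overlap, although rats 402 and 410 differed by less than 1, and the difference was -1.24 ± 0.38, or -1.02 with the covariate. Polyglycerolphosphate lipoteichoic acid biosynthesis, which makes a polymer of the Gram-positive envelope, was at 54.8 to 130 in the early set (median 104) and 94.9 to 411 in the late set (median 218), with 8 late rats above all early rats and a difference of -1.11 ± 0.38, which was -0.72 with depth as a covariate and -1.25 within the shared depth range. The values of rats 414, 418 and 422 were the highest of this function, and those of rats 410, 411 and 413 were within the early range. Sex pheromones in Enterococcus faecalis and other Firmicutes had -0.76 ± 0.34, or -0.43 with the covariate, and Sporulation Cluster -0.65 ± 0.29, or -0.36. Of the 9 functions named for sporulation, 4 were higher and 5 lower in the early set, with a median of -0.01.

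**Figure D3:**
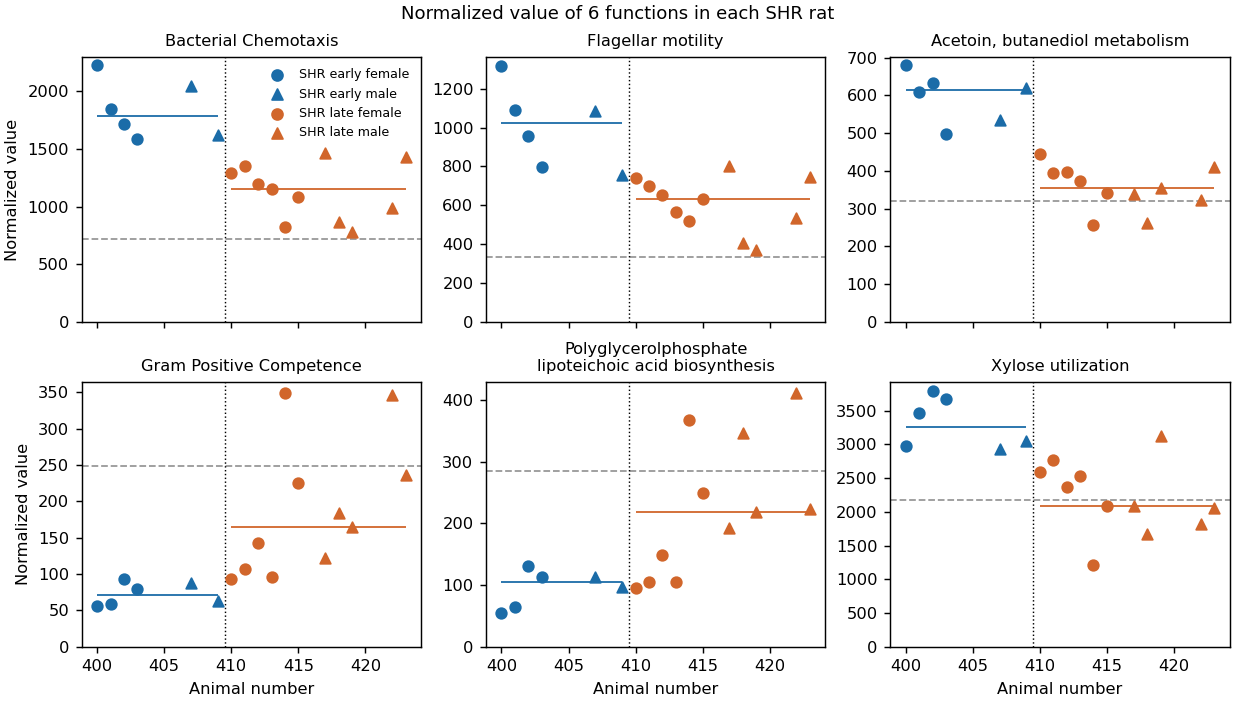
Authors' normalized values of 6 functions in each SHR rat, by animal number, with coloured lines at the median of each set, a grey dashed line at the WKY median and a dotted line at the cut (blue, early; orange, late; circles, females; triangles, males). Early and late values do not overlap for Bacterial Chemotaxis, acetoin and butanediol metabolism and Gram Positive Competence, and rat 419 stands above the other late rats for Xylose utilization.

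**Figure D4:**
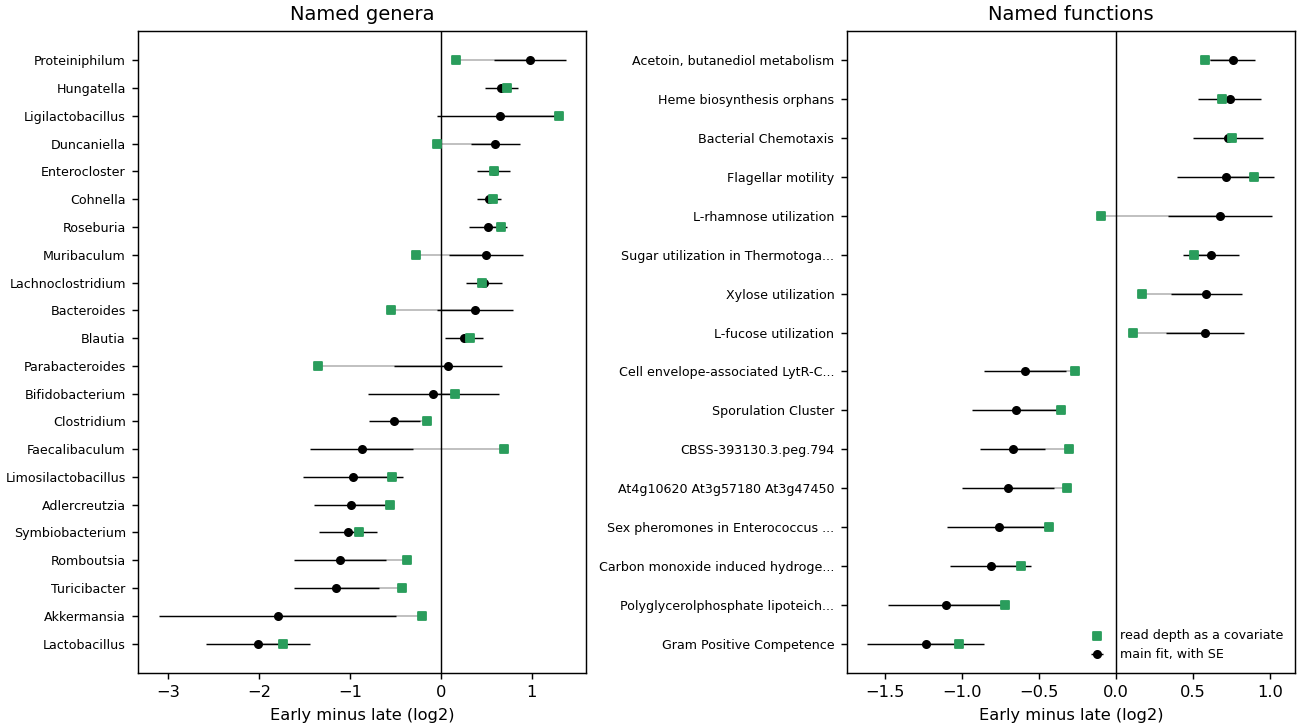
Early minus late log2 differences of the named genera (left) and functions (right), with black points and standard error bars for the fit on 6 group means and green squares for the same fit with log2 of the reads as a covariate. Lactobacillus stays at -1.74 and Bacterial Chemotaxis at 0.75 with the covariate, while Bacteroides, Parabacteroides, Duncaniella, Muribaculum, Bifidobacterium, Faecalibaculum and L-rhamnose utilization change sign.

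The other lists are given by their medians, against 0.10 over all genera and 0.01 over all functions. The medians of genera were -0.02 over 12 Coriobacteriia, -0.01 over 10 enterobacteria, 0.08 over 7 Negativicutes, -0.17 over 6 spirochaetes and -0.36 over 7 Campylobacterales, which had 0.09 with depth as a covariate. The 1 segmented filamentous bacterium, Candidatus Arthromitus, had 0.57 ± 0.37, which became 0.90 with the covariate. Of the function lists, lipopolysaccharide had 7 of 7 members higher in the early set with a median of 0.18, and ribosome and tRNA had 31 of 38 lower with a median of -0.07. The medians of peptidoglycan (0.04 over 6), antibiotic resistance (0.05 over 9), B vitamins (0.07 over 18), oxidative stress (-0.04 over 11) and phage and mobile elements (0.02 over 16) were near that of all functions. Plant polysaccharides (0.46 over 7), sulfur (0.46 over 5), iron and heme (0.28 over 6), menaquinone and ubiquinone (0.27 over 6) and propionate (0.27 over 3) had higher medians, which all fell below 0 with depth as a covariate, at -0.01, -0.24, -0.10, -0.09 and -0.54. The plant polysaccharide list includes 1 function, on inclusion membrane proteins of Chlamydiales, matched only through part of a word.

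Outside the bacteria, viruses took 0.0370 to 0.0608% of the reads in the early set and 0.0326 to 0.533% in the late set. The 5 late males, at 0.0693 to 0.533%, and the late females 413 and 414, at 0.0618% and 0.0766%, lay above all early rats, with rat 418 highest. The most abundant entry was a phage listed in the files without a name, in the family Podoviridae. It took 0.457% in rat 418, 0.0821% in rat 419 and 0.0363% in rat 422, at most 0.0284% in an early rat and at most 0.000515% in a WKY rat. Archaea took 0.357 to 0.514% in the early set and 0.390 to 0.553% in the late set, and eukaryotes 0.563 to 0.869% and 0.586 to 0.984%, which overlapped widely.

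Each SHR set was then compared with WKY in the same fit. Both comparisons use the same 16 WKY libraries. The cut that made the sets was chosen with SHR values known, so the contrasts are not independent of it. Lactobacillus, Bacterial Chemotaxis, Flagellar motility, acetoin and butanediol metabolism and Gram Positive Competence were named by their early minus late difference. Other features below, such as Hungatella, Romboutsia and Symbiobacterium, were also described above by that difference. The p-values of all these features against WKY reuse the same SHR values and give that difference no separate support. The difference between the contrasts is the early minus late difference above and was not tested. A call in early SHR without a call in late SHR does not show that the sets differ. Against WKY, 33 of 1425 genera were higher (2.32%) and 32 lower (2.25%) in early SHR at an adjusted p (limma) under 0.05. In late SHR 10 were higher (0.702%) and 28 lower (1.96%). Without early rat 409 the first comparison called 0 genera, where the lone early male 407 stands for its group and is assumed to vary like the others. The count of 65 genera also became 13 without early rat 407, 24 without 401, 30 without 402, 39 without 403, 42 without WKY female 9 and 123 without WKY male 7. Scaled by library totals the split was 427 higher and 14 lower in early SHR and 272 and 6 in late SHR, and DESeq2 on recovered reads gave 30 and 35 in late SHR. Under that scaling by totals the median of all genera moved from 0.04 to 0.46 in early SHR and from -0.06 to 0.32 in late SHR.

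Lactobacillus was 3.05 lower on the log2 scale in early SHR than in WKY (log2 difference -3.05 ± 0.54, adjusted p (limma) = 0.00195). In late SHR the difference was -1.04 ± 0.43 (adjusted p (limma) = 0.178), which did not pass. Limosilactobacillus was lower in both sets, at -2.75 ± 0.52 (adjusted p (limma) = 0.00308) in early SHR and -1.79 ± 0.41 (adjusted p (limma) = 0.0102) in late SHR. All 16 WKY rats lay above every early rat for both genera. Without rat 409 the adjusted p (limma) of both in early SHR was 0.0709, the highest over the alternatives, and the lowest were 3.77e-07 for Lactobacillus and 3.73e-05 for Limosilactobacillus. Of the 13 lactic acid genera 4 were called lower in early SHR, where 2.25% of all genera were, and 1 in late SHR, where 1.96% were. None of the early calls held without rat 409.

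Clostridium was lower in both sets, at -1.29 in early SHR (adjusted p (limma) = 0.00493) and at -0.78 in late SHR (adjusted p (limma) = 0.029). Romboutsia had -1.76 in early SHR (adjusted p (limma) = 0.0328) and -0.65 in late SHR (adjusted p (limma) = 0.357). Of the 5 genera of that list, 4 were called lower in early SHR, against 2.25% of all genera, and 1 in late SHR, against 1.96%, and 0 of the early calls held without rat 409. Parabacteroides, a genus of the Bacteroidales, was higher in both, by 2.25 (adjusted p (limma) = 0.0239) and 2.17 (adjusted p (limma) = 0.00418), and its level was 0.372% at the median of WKY. Of the 14 Bacteroidales it was the 1 genus called higher in either set, and Dysgonomonas was called lower in late SHR, at -0.63 (adjusted p (limma) = 0.0331). Hungatella was higher in early SHR, by 0.70 (adjusted p (limma) = 0.0178), and had 0.04 in late SHR (adjusted p (limma) = 0.902). None of the 10 butyrate producers was called in either set.

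The genera with the smallest p in early SHR included 3 of low share. Ktedonosporobacter (1.63 ± 0.29), Marinithermus (2.05 ± 0.36) and Asticcacaulis (1.45 ± 0.28) took at most 0.0361% of the reads of any early rat, and 15 of 16 WKY rats lay below all early rats for each. None of these 3 was called without rat 409. In late SHR Symbiobacterium, at 0.0291 to 0.185%, was 1.52 ± 0.23 higher than in WKY (adjusted p (limma) = 0.000371), and Actinotalea, at under 0.003% in all late rats, was lower, at -1.35 ± 0.23. With depth as a covariate neither passed, with adjusted p (limma) = 0.0797 and 0.0697, the highest over their alternatives, where the lowest were 7.69e-11 and 3.55e-05. Their differences on that fit were 1.36 and -1.34. On that fit 183 genera were called in early SHR and 10 in late SHR.

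Of 658 functions, 92 were higher (14.0%) and 101 lower (15.3%) in early SHR than in WKY, and 41 higher (6.23%) and 44 lower (6.69%) in late SHR. Scaled by library totals, the late split was 50 and 35. Without early rat 407 the first comparison called 92 functions in place of 193, without early rat 409 it called 115, and with depth as a covariate the second called 21 in place of 85. Of the 5 motility functions 4 were called higher in early SHR and 3 in late SHR. Bacterial Chemotaxis had 1.33 ± 0.22 (adjusted p (limma) = 0.000154) and 0.60 ± 0.17 (adjusted p (limma) = 0.0195), and all 16 WKY values lay below all early values. Flagellar motility had 1.48 (adjusted p (limma) = 0.000658) and 0.77 (adjusted p (limma) = 0.0295). Flagellum had 1.01 (adjusted p (limma) = 0.000709) and 0.49 (adjusted p (limma) = 0.0458), and its late call held in 13 of 33 alternatives. With depth as a covariate none of the 3 late calls passed, at adjusted p (limma) = 0.214, 0.405 and 0.396, and these were the highest over their alternatives, with lowest values of 0.00696, 0.0110 and 0.0161. The differences on that fit were 0.57 for Bacterial Chemotaxis, 0.53 for Flagellar motility and 0.37 for Flagellum.

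Acetoin and butanediol metabolism was 0.92 ± 0.14 higher in early SHR (adjusted p (limma) = 7.33e-05) and had 0.16 ± 0.11 in late SHR (adjusted p (limma) = 0.318). Gram Positive Competence was lower, at -1.83 in early SHR (adjusted p (limma) = 0.000587) and had -0.60 in late SHR (adjusted p (limma) = 0.153). Respiratory dehydrogenases 1 was lower in both sets, at -0.65 ± 0.09 and -0.41 ± 0.07, and so was the use of the osmolyte 2-O-alpha-mannosyl-D-glycerate, at -1.02 ± 0.18 and -0.91 ± 0.14. Phosphorylcholine incorporation in LPS, a modification of the Gram-negative surface, was higher in both, by 0.40 ± 0.12 and 0.57 ± 0.10. With depth as a covariate the late differences of Respiratory dehydrogenases 1 and Phosphorylcholine incorporation in LPS did not pass, at adjusted p (limma) = 0.0641 and 0.122, again the highest over their alternatives, with lowest values of 2.25e-05 and 1.11e-06. Their differences on that fit were -0.39 and 0.40.

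**Figure D5:**
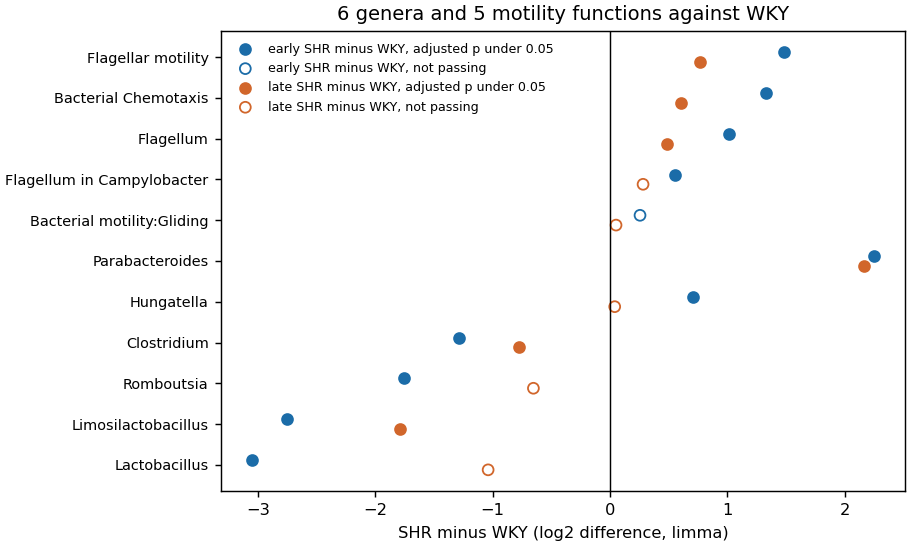
Log2 differences of 6 genera and the 5 motility functions in early SHR (blue) and late SHR (orange) against the same 16 WKY rats, with filled points at an adjusted p (limma) under 0.05 and open points above it. The genera were chosen after their values were seen, and Lactobacillus is at -3.05 in early SHR and -1.04 in late SHR.

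Depth itself was followed within the 11 late rats, where the cut has no part. Per doubling of the reads, 51 of 1425 genera rose (3.58%) and 45 fell (3.16%), and 45 of 658 functions rose (6.84%) and 12 fell (1.82%), in limma. In place of 96 genera, 3 were called without rat 414, the shallowest, 5 without 418, 23 without 419, 25 without 411, 32 without 415, 33 without 410, 41 without 412, 62 without 413 and 176 without 417. In place of 57 functions, 0 were called without rat 414, 8 without 418, 36 without 415 and 98 without 422. The split of genera was 23 and 35 when scaled by library totals, 16 and 71 in edgeR and 29 and 93 in DESeq2, and that of functions 47 and 24 in DESeq2, so genera that fell with depth outnumbered those that rose in these 3 alternatives. Romboutsia fell by 1.32 per doubling (adjusted p (limma) = 0.00784) and Turicibacter by 1.10 (adjusted p (limma) = 0.00632), while Bacteroides rose by 1.42 (adjusted p (limma) = 0.0176). Of the 14 Bacteroidales 9 rose with depth and 0 fell. Without rat 414, 0 genera of any kind were called as rising and 3 as falling, so none of these rises was called. Lactobacillus had -0.82 (adjusted p (limma) = 0.417), and of the 5 motility functions 0 were called, with Bacterial Chemotaxis at 0.25 (adjusted p (limma) = 0.378). L-fucose utilization rose by 0.72 and Cellulosome, the complex that degrades cellulose, by 1.43 (both adjusted p (limma) = 0.0135). Neither was called without rat 414. The part of other properties of the rats in these trends was not tested. The Shannon index had r = 0.05 with depth (permutation p = 0.880, n = 11; rho = 0.20, permutation p = 0.556), and -0.44 without the 2 rats farthest from the median depth. For richness r was 0.34 (permutation p = 0.304; rho = 0.29, permutation p = 0.386), and -0.20 without those rats. For the log2 Firmicutes to Bacteroidetes ratio r was -0.39 (permutation p = 0.234; rho = -0.52, permutation p = 0.109), and -0.41 without them. None of these 3 passed Benjamini-Hochberg adjustment, with adjusted p of at least 0.326. Sex was in the fits of genera and functions but not in these 3 correlations. The mean log2 ratio was 0.41 in late females and 1.05 in late males.

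Animal number was also followed within the 16 WKY rats. With sex in the fit, 0 of 1425 genera (0.0%) and 0 of 658 functions (0.0%) were called in limma, with 58 genera and 37 functions at an unadjusted p under 0.05. On recovered reads edgeR had 62 and 43 at that level and DESeq2 77 and 52, and both called 0 genera and 0 functions after adjustment. The WKY numbers span 372 to 389 and hold no cut of their own. The Shannon index had r = -0.29 with number (permutation p = 0.273, n = 16; rho = -0.30, permutation p = 0.258, r = -0.24 without the 2 rats farthest from the median number). Richness had r = -0.27 (permutation p = 0.330; rho = -0.12, permutation p = 0.657, r = -0.30 without them) and the log2 Firmicutes to Bacteroidetes ratio r = 0.09 (permutation p = 0.733; rho = 0.06, permutation p = 0.813, r = 0.15 without them). Adjusted over the 3 measures no p was below 0.494. These correlations left sex out.

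Sex was compared within the sets, with each set as a stratum. In SHR 0 of 1425 genera (0.0%) and 0 of 658 functions (0.0%) differed in limma, with 34 genera and 11 functions at an unadjusted p under 0.05. On recovered reads edgeR and DESeq2 also called 0, with 43 and 52 genera and 19 and 16 functions at that level. Males minus females gave 0.04 for the Shannon index, 18.8 species for richness and 0.39 for the log2 Firmicutes to Bacteroidetes ratio, and sex went with 0.117 of the Bray-Curtis variation. The exact permutation test within the sets (6930 arrangements) gave p = 0.792, 0.545, 0.329 and 0.428, and 0.727 to 0.792 after adjustment over the 4 measures. It was 2-sided for the Shannon index, richness and the ratio. For the share of Bray-Curtis variation it counted only arrangements with at least as large a share. The early set holds 2 males, which limits the precision of this comparison. Females have the lower numbers in each set, so sex cannot be told apart from litter, cage or processing that goes with number. Late males were also deeper, with a median of 504282 reads against 315344 in late females. With depth as a covariate, 98 genera and 63 functions had an unadjusted p (limma) under 0.05, and 1 genus and 0 functions were called.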

How the data were processed

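Cecal DNA was extracted with the MagAttract PowerSoil kit and made into Nextera libraries, per the labels' protocols. FastQC 0.11.5, cutadapt 2.6, Trimmomatic 0.36 and DESeq2 are named in the submitters' processing notes, and the tool that named taxa and functions is not given in the sources used here. The authors deposited percent tables (share of each library's assigned reads) and tables of counts divided by DESeq2-type size factors (a signal per feature). Both are whole reads rescaled: 100.0% of values came out whole within a tolerance of 0.01.

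Levels are percent or normalized values as deposited. The design foresaw edgeR on counts. Since the files hold normalized values, limma 3.58.1 (trend, robust) was run on log2(normalized value + 1) over 6 group means (set or strain by sex) in 33 libraries, which understates changes of low features. Features needed a value of 10 in 6 libraries (1425 of 1454 genera, 4723 of 5999 species, 658 of 1057 functions). A feature was called at a p under 0.05 after Benjamini-Hochberg adjustment across its whole table. Community measures used reads thinned to 131630 per library. edgeR 4.0.16 and DESeq2 1.42.0 on recovered reads, scaling by library totals, a pseudocount of 0.5, no filter, thinned reads, depth as a covariate and leaving out each library were alternatives. Scripts were tested on simulated data. No file gives a per-sample column beyond the 33 libraries.

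The sets, members and lists were chosen with earlier results of these data known. Named features are the 10 most abundant genera and species, the 8 genera, species and functions with the largest difference in each direction with the same sign in both sexes (mean share of at least 0.05% or mean value of at least 100), phyla of at least 0.5%, the 3 most abundant genera of each list, and the 5 called features with the smallest p in each tested contrast. Replicate numbers were given in accession order and pair nothing. The p-values take each rat as an independent measurement, although rats that share a litter or cage may be alike. Litter and cage are not in the fits. The animal numbers of WKY and SHR do not overlap, so strain cannot be told apart from housing or processing that goes with number.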

Additional observations from a re-analysis of the deposited data

Results flagged for a closer look

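Values of single rats that stood apart from the rest of their set and sex were looked for in 231 group values by Dixon's test at the 95% level, in groups of 4 to 6 rats, and 29 were found. Chance alone gives about 1 in 20 where values are independent and normally distributed. These were untransformed shares and normalized values, many of related taxa, so the 29 cannot be set against that rate. The early males were too few to look at.

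Late male rat 419 stood apart in 10 values. Its log2 Firmicutes to Bacteroidetes ratio was -0.72, against 1.14 to 1.87 in the other late males, with 29.9% Firmicutes (others 47.5 to 54.3%) and 49.2% Bacteroidetes (others 14.6 to 23.3%). Bacteroides took 13.4% (others 3.09 to 5.47%), Parabacteroides 10.3% (others 0.674 to 1.07%), Parabacteroides distasonis 7.17%, Bacteroides uniformis 1.44% and Prevotella oris 0.0755%. L-rhamnose utilization had a normalized value of 827 (others 263 to 399) and Xylose utilization 3127 (others 1670 to 2080).

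Late male rat 422 stood apart in 7 values. Lactobacillus acidophilus took 0.673% (others 0.116 to 0.257%), Lactobacillus crispatus 0.567%, Lactobacillus amylovorus 0.494%, Lactobacillus acetotolerans 0.308% and Lactobacillus amylolyticus 0.484%, which are close relatives and not independent. Symbiobacterium took 0.185% there (others 0.0291 to 0.0670%), and Sporulation Cluster had a normalized value of 259.7 (others 141 to 175).

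Late female rat 414, the shallowest library, stood apart for Lactobacillus johnsonii at 10.3% (others 0.678 to 4.26%), Limosilactobacillus vaginalis at 0.781% (others 0.00614 to 0.261%) and Faecalibaculum at 0.945% (others 0.115 to 0.373%). Early female rat 402 stood apart for Verrucomicrobia at 0.993% (others 0.153 to 0.217%), with Akkermansia at 0.914% and Akkermansia muciniphila at 0.904%. Late male rat 418 had 0.533% viruses (others 0.0693 to 0.126%).

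Adlercreutzia stood apart in early female rat 400 at 0.293% (others 0.162 to 0.179%) and in late male rat 423 at 0.279% (others 0.547 to 0.612%). In rat 400 the function of the cell envelope-associated LytR-CpsA-Psr attenuators had a normalized value of 237 (others 153 to 162). Early female rat 401 had 176 for Sex pheromones in Enterococcus faecalis and other Firmicutes (others 217 to 226), and late female rat 410 had 0.333% Bacteroides sp. HF-162 (others 0.0245 to 0.137%).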

How the results depend on the processing

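Of the alternatives to the main counts and values, 498 stayed within the limit set for them, 54 moved, 3 reversed and 1 became stronger. With log2 of reads as a covariate, genera past 2-fold between the sets numbered 20 (34 without it), species 160 (241) and functions 17 (28). Thinned reads gave 61 genera and 480 species past 2-fold, and 4 genera and 22 species without overlap. The shared depth range, where the fit sets early male 407 against late males 419, 422 and 423, gave 60 genera and 441 species. No filter on low values gave 370 species. Genera called between the sexes were 1 with the covariate. Between early SHR and WKY, 441 genera were called when scaled by library totals, 183 with the covariate, 100 in edgeR and 163 in DESeq2 (65 in limma). Between late SHR and WKY they were 278, 10 and, in DESeq2, 65 (38 in limma), and 21 functions with the covariate (85). With read depth in the late set, 58 genera were called under scaling by library totals (96 in the main setting). Without thinning, the richness difference was 164.0 species, r of richness with animal number in WKY reversed to 0.315, and r of richness with depth in the late set rose to 0.936 (permutation p = 1e-05, the smallest that 100000 resamples can give), with richness counted on all reads. With genera in place of species, r of the Shannon index with depth reversed to -0.247.

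Leaving out 1 library at a time gave 26 to 49 genera, 184 to 372 species and 19 to 31 functions past 2-fold, and 7 to 30 genera and 40 to 89 species without overlap. It gave 0 to 123 genera and 92 to 204 functions for early SHR against WKY, 28 to 55 genera and 63 to 115 functions for late SHR against WKY, and 3 to 176 genera and 0 to 98 functions for depth in the late set. The sex difference of the Shannon index ran from -0.0190, without early female rat 403, to 0.108. The without-overlap counts, which can only stay or rise when a library is left out, and their alternatives were added after seeing the data. No paired analysis was possible because the labels carry no replicate numbers shared between groups. Counts of 8 late libraries below every early library limit how far depth and set can be separated.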
